A study of Mus musculus with 8 samples.

Results

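The Hox genes are the 39 homeobox genes of the Hoxa, Hoxb, Hoxc and Hoxd clusters. They were chosen by symbol alone, as every entry named Hox with a cluster letter from a to d and a number, and make up 39 of the 25509 genes in the table. Their RNA was compared between 2 fractions of lung fibroblasts sorted from the same wild-type C57Bl6/J mice, which carried no transgene or treatment that the labels name and whose age the labels do not give. Dissociated lung cells negative for CD45, CD326 and CD31, the surface markers used here to exclude leukocytes, epithelium and endothelium, were divided by surface CD249, the aminopeptidase encoded by Enpep, into CD249+ and CD249- cells in equal numbers. Each fraction gave 4 libraries, from the mice numbered 2, 7, 8 and 10, and every mouse gave 1 library of each.

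Hox genes encode homeodomain transcription factors that assign position along the body axis. Within a cluster the genes lie in the order of their paralog numbers, and low numbers are switched on early and toward the head, high numbers late and toward the tail. Adult fibroblasts keep much of the Hox pattern of the place where they formed. The lung mesenchyme, a derivative of foregut mesoderm, is known for anterior and middle Hox genes, among them Hoxa5, without which the mouse airway and lung form abnormally.

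The libraries held 23011383 to 31906414 counts. Enpep, the sorted marker, stood at 8.98 ± 5.62 CPM, counts scaled to library size (SD, n = 4), in CD249- and 241 ± 64.8 CPM in CD249+ cells, with no overlap. The 2 fractions also differed in markers of other cell types. Over all genes tested, 16.9% were called higher in CD249+ cells and 13.9% lower (30.8% in either direction). The shares called among leukocyte markers (30.0%) and epithelial markers (33.3%) were near that of all genes. All 14 endothelial markers were called lower in CD249+ cells, with summed levels of 13753 to 18290 CPM in CD249- and 4454 to 8274 CPM in CD249+ libraries, so endothelial RNA was present in both despite the CD31 gate. Core fibroblast markers summed to 4990 to 12312 CPM in CD249- and 13175 to 24220 CPM in CD249+ libraries, and 6 of 7 were called higher. For alveolar fibroblast markers, 9 of 9 were called higher, with sums of 506 to 885 against 5118 to 8741 CPM. Pericyte markers were called higher in 7 of 8, with sums of 81.1 to 128 against 334 to 488 CPM. Mesothelial markers were called lower in 5 of 6, with sums of 84.2 to 220 against 25.3 to 54.2 CPM, and leukocyte markers in 3 of 10, with 3074 to 5375 against 2169 to 4518 CPM. Epithelial markers were called higher in 3 of 9, with sums of 156 to 679 CPM in CD249- libraries. In CD249+ libraries they summed to 464, 642 and 1107 CPM in mice 2, 7 and 8 and to 10091 CPM in mouse 10, where Sftpc, a surfactant gene, made up most of it. Smooth muscle markers were called higher in 5 of 6, with sums of 170 to 736 against 875 to 1737 CPM. Adventitial fibroblast markers went both ways, 4 higher and 3 lower of 8, with sums of 3503 to 3760 against 3046 to 3711 CPM. None of these markers was at 0 in all libraries. Their part in the Hox results was not tested, and in these bulk samples a change in the number of cells of a type and a change in RNA per cell cannot be told apart.

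The homeoboxes below are those of 3 Hox genes that differed between the fractions, Hoxb6, Hoxb7 and Hoxb2, and of Hoxa5, the most abundant member. They are shown because paralogs are most alike here, so this is where a read could be assigned to the wrong member. Each is the 180-base homeobox in the GENCODE M21 transcript, written 5′ to 3′, with capitals over the 18 bases that encode the core of the DNA recognition helix.
Hoxb6: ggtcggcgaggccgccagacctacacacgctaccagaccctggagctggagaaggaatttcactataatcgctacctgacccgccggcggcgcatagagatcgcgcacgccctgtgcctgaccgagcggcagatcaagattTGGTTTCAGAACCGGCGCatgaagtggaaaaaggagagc
Hoxb7: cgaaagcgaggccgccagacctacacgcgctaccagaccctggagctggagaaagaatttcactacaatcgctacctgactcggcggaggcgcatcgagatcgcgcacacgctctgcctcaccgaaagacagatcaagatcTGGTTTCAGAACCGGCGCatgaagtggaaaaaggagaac
Hoxb2: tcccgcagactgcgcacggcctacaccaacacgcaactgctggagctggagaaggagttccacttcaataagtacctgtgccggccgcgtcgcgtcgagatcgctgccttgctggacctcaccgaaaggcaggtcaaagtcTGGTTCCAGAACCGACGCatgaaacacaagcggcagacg
Hoxa5: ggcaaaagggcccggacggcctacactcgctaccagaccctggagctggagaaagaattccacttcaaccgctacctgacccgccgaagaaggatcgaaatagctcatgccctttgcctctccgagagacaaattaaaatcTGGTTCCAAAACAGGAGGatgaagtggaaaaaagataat
Hoxb6 and Hoxb7 had the same base at 88.9% of positions, with 20 differences and a longest identical stretch of 37 bases. Hoxa7 and Hoxb7 were identical at 85.0% of positions, with a longest stretch of 26 bases. Over the 91 pairs of the 14 members with enough counts to test, the longest identical stretch in the homeobox was 52 bases, between Hoxa6 and Hoxb4. No pair shared a stretch as long as the 75-base reads, so a full-length read without errors inside these homeoboxes matched only 1 of these 14.

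Of the 39 members, 14 passed the filter on low counts. They included Hoxa2 to Hoxa7, Hoxb2 to Hoxb7 and Hoxc4, and came almost wholly from the Hoxa and Hoxb clusters. The other 25 were not tested. Among them 12 had no count in any of the 8 libraries, namely Hoxa10, Hoxb13, Hoxc8, Hoxc10 to Hoxc13, Hoxd1 and Hoxd10 to Hoxd13. A count of 0 allows a level of up to 3 counts, or 0.0899 to 0.125 CPM depending on the library, for counting error only.

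**Figure D1:**
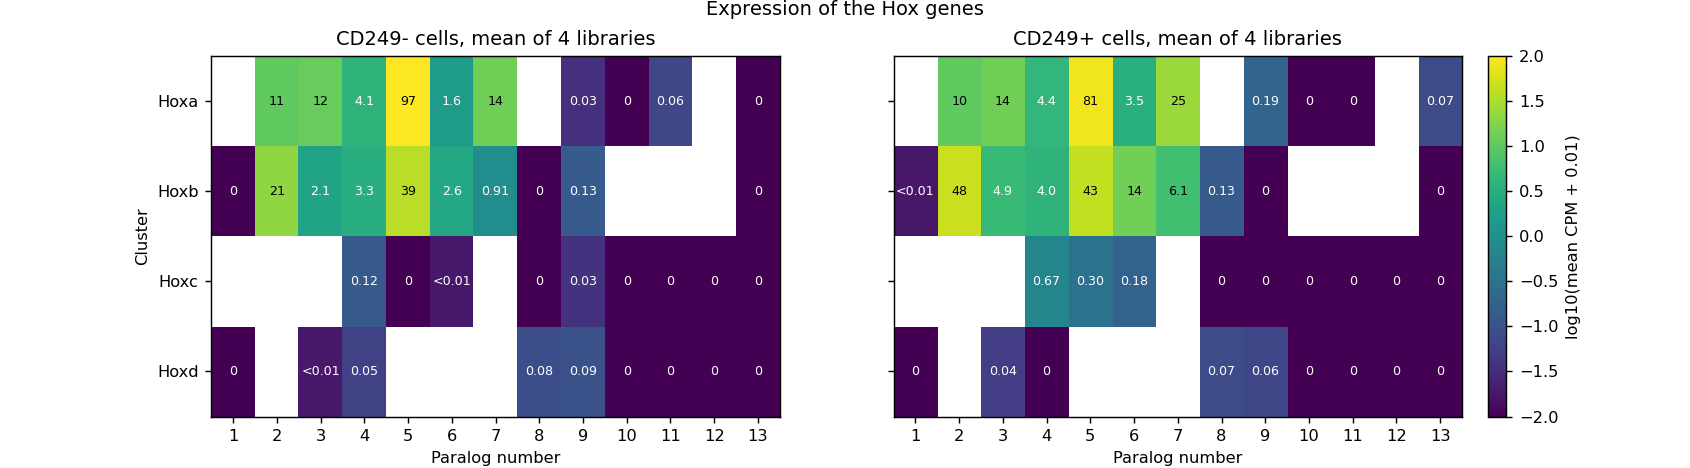
Mean level of the Hox genes in CPM, on a colour scale, by cluster (vertical) and paralog number (horizontal), in CD249- and CD249+ cells (mean of 4 libraries each). White cells hold no value. Signal lies in paralogs 2 to 7 of Hoxa and Hoxb, and Hoxa5 is the highest cell in both fractions at 96.7 and 81.4 CPM.

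Hoxa5 was the most abundant member in both fractions. It made up 46.4% of all Hox RNA in CD249- and 31.0% in CD249+ cells, and ranked 2177 and 2697 among all genes. Per kilobase of exon, which allows levels of different genes to be compared, Hoxa5 stood at 51.5 ± 7.07 CPM per kb (SD, n = 4) in CD249- cells. Hoxb5 followed at 20.5 ± 2.50, Hoxb2 at 13.1 ± 2.59 and Hoxa2 at 6.0 ± 1.10 CPM per kb, and the ranges of neighbours in this order did not overlap. Below Hoxa2 came Hoxa7, Hoxa3, Hoxa4, Hoxa6, Hoxb6, Hoxb4, Hoxb7, Hoxb3 and Hoxc4, from 4.83 ± 1.265 for Hoxa7 down to 0.0476 CPM per kb for Hoxc4. In that lower stretch Hoxa3 lay above Hoxa4, and Hoxb3 above Hoxc4, without overlap, while the ranges of the other neighbours named overlapped.

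The order was different in CD249+ cells. Hoxa5 stood at 43.4 ± 6.25 CPM per kb and Hoxb2 at 29.2 ± 5.60, ahead of Hoxb5 at 22.9 ± 1.24. Hoxa7 followed at 9.08 ± 2.25, and Hoxb6, at 1.33 ± 0.448 CPM per kb in CD249- cells and below Hoxa6 there, moved up past Hoxa2 and 3 others to 7.26 ± 0.939 CPM per kb, above Hoxa2 at 5.86 ± 1.05. Hoxb7 stood at 4.75 CPM per kb, between Hoxa3 at 5.09 and Hoxa6 at 3.99. Among the neighbours named for this fraction, those without overlap were Hoxb2 with Hoxb5 and Hoxb5 with Hoxa7.

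In CPM, Hoxb6, Hoxb7, Hoxb2 and Hoxa7 were higher in CD249+ than in CD249- libraries of the same mice. In contrast, no call was made for Hoxa5 or Hoxb5, the members best known in the lung. CPM are shares of library RNA and not RNA per cell, and relative to core collagen genes no member was called higher. With edgeR's quasi-likelihood test, adjusted over all 14524 genes tested, 4 of the 14 members (28.6%) rose and 0 fell, beside 16.9% of all genes tested called higher and 13.9% called lower (30.8% in either direction). At an unadjusted p under 0.05, 6 members were higher and 0 lower, and DESeq2 and limma-voom also called 0 lower. With mouse as a block, the same 4 members were called higher, beside 19.3% of all genes. The log2 fold change was above 0 for 12 members and below 0 for 2, and its median was 0.95, beside -0.02 over all genes tested. For 6 members, all higher in CD249+ cells, the groups did not overlap (42.9%, beside 17.8% of all genes higher without overlap and 33.6% in either direction). These 6 were Hoxa6, Hoxb2, Hoxb3, Hoxb4, Hoxb6 and Hoxb7.

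**Figure D2:**
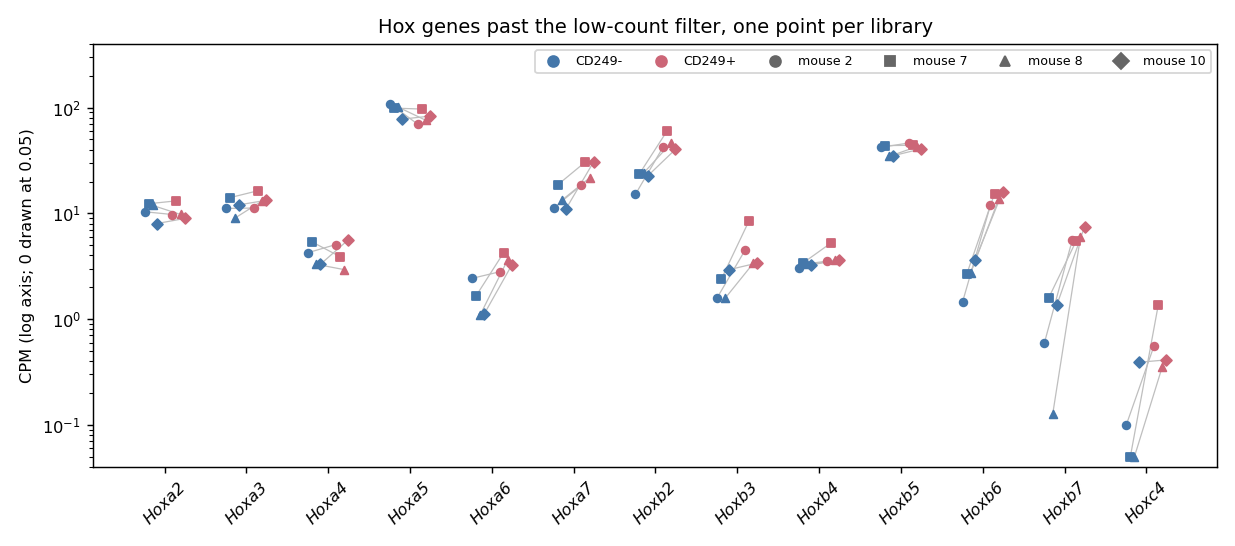
Level of tested Hox genes in each library, in CPM on a log axis, with 1 point per library and lines joining the 2 fractions of a mouse. All 4 lines rise for Hoxb6, Hoxb7, Hoxb2 and Hoxa7. They also rise for Hoxa3, Hoxa6, Hoxb3, Hoxb4, Hoxb5 and Hoxc4, which were not called. For Hoxa5 the 2 fractions overlap, at 77.9 to 109 CPM in CD249- and 69.7 to 96.9 CPM in CD249+ cells.

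Hoxb6, a gene of the lateral plate and limb mesoderm in the embryo, lies at chr11:96292476-96301569 on the plus strand of GRCm38 (ENSMUSG00000000690.5). It was at 1.46, 2.66, 2.75 and 3.598 CPM in the CD249- libraries of mice 2, 7, 8 and 10, and at 12.0, 15.4, 13.6 and 16.1 CPM in their CD249+ libraries. Every CD249+ library lay above every CD249- library by a wide margin. The means were 2.62 ± 0.879 and 14.3 ± 1.84 CPM (SD, n = 4), a log2 fold change of 2.44 (SE 0.29, adjusted p = 0.000209 by edgeR). Within mice the fold ranged from 4.46 in mouse 10 to 8.18 in mouse 2. The gene moved from rank 11927 to rank 9130 among all genes.

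Hoxb7, the neighbour of Hoxb6 and a gene of the trunk mesoderm and the embryonic kidney duct, lies at chr11:96286623-96290162 on the plus strand (ENSMUSG00000038721.8). Its CD249- libraries held 0.598, 1.58, 0.125 and 1.35 CPM, and its CD249+ libraries 5.60, 5.52, 5.95 and 7.47 CPM. The CD249+ values were even among mice, whereas the CD249- library of mouse 8 held only 3 counts. Hoxb7 rose by a log2 fold change of 2.73 (SE 0.62, adjusted p = 0.00784 by edgeR), from 0.912 ± 0.671 to 6.13 ± 0.908 CPM.

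Hoxa7, the same paralog number in the other well expressed cluster, lies at chr6:52214491-52221854 on the minus strand (ENSMUSG00000038236.8). It was at 11.2, 18.6, 13.3 and 10.97 CPM in CD249- and at 18.5, 30.7, 21.6 and 30.8 CPM in CD249+ libraries. The groups touched, since the CD249+ library of mouse 2 lay just under the CD249- library of mouse 7, but each mouse had more in its CD249+ cells. The log2 fold change was 0.91 (SE 0.23, adjusted p = 0.0139 by edgeR), from 13.5 ± 3.54 to 25.4 ± 6.28 CPM. Without both libraries of mouse 8 the adjusted p was 0.0511, and without both of mouse 10 it was 0.0980. In GENCODE M21 the antisense gene Hoxaas3 covers 586 exonic bases of Hoxa7, and because the library does not mark strand, reads of the 2 genes there cannot be told apart.

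Hoxa6, the remaining member of paralogs 6 and 7 with enough counts, held 2.42, 1.65, 1.08 and 1.11 CPM in CD249- and 2.80, 4.25, 3.64 and 3.25 CPM in CD249+ libraries. The groups did not overlap, yet the gene did not pass the test (log2 fold change 1.15, SE 0.42, adjusted p = 0.0613 by edgeR). DESeq2 called it at an adjusted p of 0.0133 and limma-voom at 0.0416. With edgeR it passed once the CD249- library of mouse 2 (0.0385) or that mouse as a whole (0.0465) was omitted. The other edgeR fits that left out libraries did not call it, at adjusted p of up to 0.205. With mouse as a block, Hoxa6 did not pass either (adjusted p = 0.0916 by edgeR).

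**Figure D3:**
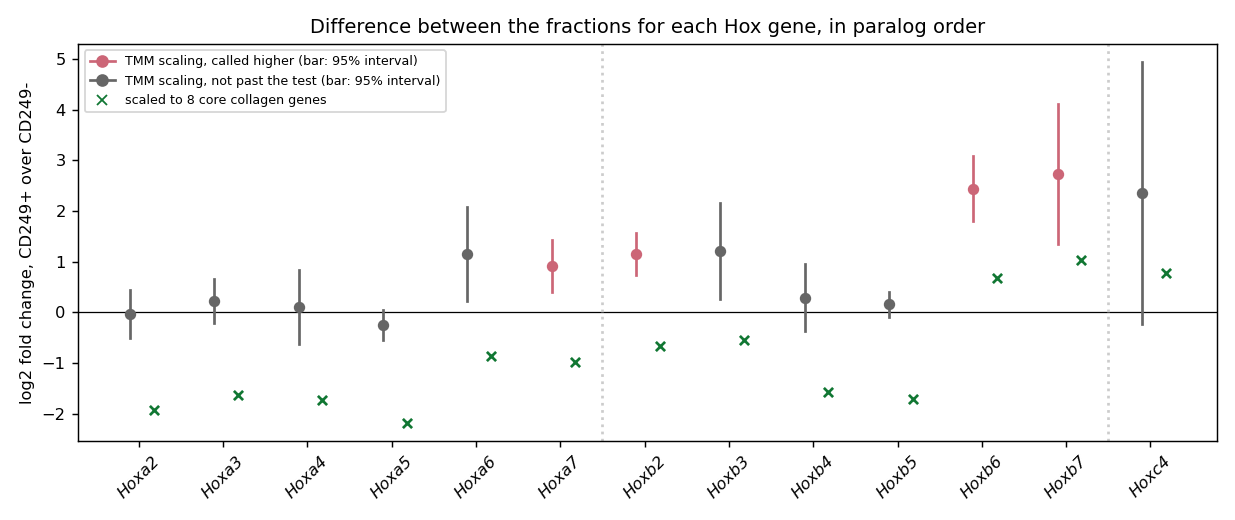
Log2 fold change of CD249+ over CD249- for tested Hox genes, with the 95% confidence interval of the edgeR fit, and crosses for the value relative to 8 core collagen genes. Hoxb6 and Hoxb7 lie highest among the called genes, at 2.44 and 2.73, and the cross of each gene lies below its point.

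Among the anterior members, Hoxb2, which acts in the embryonic hindbrain and is here the most abundant Hoxb gene per kilobase after Hoxb5 in CD249- cells, was called. It lies at chr11:96350525-96354012 on the plus strand (ENSMUSG00000075588.6). The CD249- libraries held 15.1, 23.7, 24.1 and 22.6 CPM and the CD249+ libraries 42.6, 60.6, 46.5 and 40.4 CPM. The lowest CD249+ library was well above the highest CD249- library. Hoxb2 rose by a log2 fold change of 1.15 (SE 0.18, adjusted p = 0.00113 by edgeR), from 21.4 ± 4.22 to 47.5 ± 9.11 CPM. The protein-coding transcripts of Hoxb2 hold 1628 exonic bases. Counted over all transcripts of Hoxb2, the antisense gene Hoxb3os covers 953 exonic bases, so the 2 numbers give no fraction. Reads of the 2 genes in that overlap cannot be told apart.

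The 4 called genes were also fitted in 2 pairs of mice, mice 7 and 8 and mice 2 and 10. They had been called from these same mice and were higher in each, so the same sign in both pairs was fixed in advance. The sizes come from the same selected genes and mice and are no separate support. They were close for Hoxb6, Hoxb7 and Hoxb2 but 0.74 against 1.15 for Hoxa7. Fewer passed the test with 2 mice. In mice 7 and 8 the log2 fold change was 2.45 for Hoxb6, 2.75 for Hoxb7, 1.196 for Hoxb2 and 0.74 for Hoxa7, and in mice 2 and 10 it was 2.46, 2.74, 1.14 and 1.15 in the same order. The adjusted p by edgeR in mice 7 and 8 was 0.00321 for Hoxb6, 0.00611 for Hoxb2, 0.116 for Hoxb7 and 0.121 for Hoxa7. In mice 2 and 10 it lay between 0.0717 and 0.103 for these 4 genes.

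Hoxa2, the paralog of Hoxb2 in the Hoxa cluster and a patterning gene of the second pharyngeal arch, gave a flat comparison. It held 10.4, 12.3, 11.9 and 8.01 CPM in CD249- and 9.75, 13.1, 9.77 and 8.94 CPM in CD249+ libraries, with full overlap. Its log2 fold change was -0.03 with a 95% interval of -0.50 to 0.43 (adjusted p = 0.923 by edgeR), an interval that lies below that of Hoxb2, 0.75 to 1.56. The difference between the 2 paralogs was not tested itself.

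Hoxb3 and Hoxa3, which pattern the pharyngeal arches and their glands, did not pass the test with edgeR. The 95% interval of the log2 fold change was 0.27 to 2.16 for Hoxb3 and overlapped that of Hoxa3. The difference between these paralogs was not tested. Hoxb3 held 1.59, 2.38, 1.58 and 2.94 CPM in CD249- and 4.48, 8.53, 3.36 and 3.39 CPM in CD249+ libraries. Those groups did not overlap, with the highest value in mouse 7. The log2 fold change of 1.21 (SE 0.42) missed the threshold at an adjusted p of 0.0538 by edgeR, whereas DESeq2 gave 0.0165. With limma-voom Hoxb3 also missed, at an adjusted p of 0.0780. So it did by edgeR with mouse as a block (0.0662) and in every fit that left out libraries (0.0547 to 0.222). The protein-coding transcripts of Hoxb3 hold 3893 exonic bases. Hoxb3os also covers 2250 exonic bases of Hoxb3, again counted over all transcripts, and reads in that overlap cannot be told apart. Hoxa3 held 11.1, 14.1, 8.97 and 12.0 CPM against 11.2, 16.4, 13.1 and 13.3 CPM, higher in each mouse but overlapping, with a log2 fold change of 0.22 (95% interval -0.21 to 0.66, adjusted p = 0.420 by edgeR). Antisense genes cover up to 503 exonic bases of Hoxa3.

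Paralogs 4 and 5 gave no call. Paralog 5 held 65.0% of the Hox RNA in CD249- and 47.7% in CD249+ cells, and paralog 4 held 3.59% and 3.45%. Hoxa5, at chr6:52201754-52204587 on the minus strand (ENSMUSG00000038253.6), held 109, 98.9, 101 and 77.9 CPM in CD249- and 69.7, 96.9, 75.8 and 83.1 CPM in CD249+ libraries. It was lower in CD249+ cells in 3 of 4 mice and higher in mouse 10. The log2 fold change was -0.25 with a 95% interval of -0.55 to 0.05 (adjusted p = 0.196 by edgeR), so a rise of the size seen for Hoxb2 lay outside the interval.

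Hoxb5, at chr11:96303336-96306121 on the plus strand (ENSMUSG00000038700.4) and a gene of the branching lung mesenchyme, held 42.1, 43.7, 34.5 and 35.1 CPM against 46.3, 44.1, 42.8 and 40.7 CPM. It was slightly higher in CD249+ cells of each mouse, with overlapping groups and a log2 fold change of 0.16 (95% interval -0.09 to 0.41, adjusted p = 0.305 by edgeR). Hoxb5 is the direct neighbour of Hoxb6, whose interval of 1.80 to 3.08 lay wholly above it.

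Hoxa4 and Hoxb4, the latter known from blood stem cells, were low. Hoxa4 held 4.25, 5.36, 3.30 and 3.30 CPM in CD249- and 5.07, 3.89, 2.94 and 5.62 CPM in CD249+ libraries, without a common direction among mice (log2 fold change 0.11, adjusted p = 0.828 by edgeR). Hoxb4 held 3.02, 3.40, 3.34 and 3.27 against 3.52, 5.24, 3.61 and 3.597 CPM. Its groups did not overlap, but the distance was small except in mouse 7, and the log2 fold change of 0.29 (95% interval -0.37 to 0.96) had an adjusted p of 0.497 by edgeR.

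The values were also read along each cluster, as the log2 ratio of a gene to its neighbour in the same library, which does not depend on how libraries are scaled. These ratios were chosen after the values had been seen. Their exact permutation test exchanged all 8 libraries freely and did not use the pairing by mouse. Exchange within mice was not run. With 4 mice it allows too few arrangements to give a two-sided p under 0.05. Hoxb6 over Hoxb5 went from -3.95 ± 0.670 in CD249- to -1.62 ± 0.258 in CD249+ cells (SD, n = 4; exact permutation p = 0.0286, two-sided, the smallest that 4 against 4 libraries allow). Hoxa6 over Hoxa5, the same position in the other cluster, went from -6.02 ± 0.440 to -4.55 ± 0.135 (exact permutation p = 0.0286). Hoxb4 over Hoxb3 went the other way, from 0.666 ± 0.416 to -0.215 ± 0.386 (exact permutation p = 0.0286). Adjusted over the 11 neighbouring pairs computed, each of these 3 had an exact permutation p of 0.105, so none of the pairs passed. Hoxb7 over Hoxb6 was among the other 8, with an exact permutation p of 0.629.

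Summed over a cluster, Hoxb RNA was at 69.3 ± 6.15 CPM in CD249- and 120 ± 12.8 CPM in CD249+ cells (SD, n = 4). The ranges were 63.9 to 78.0 and 112 to 139 CPM and did not overlap. The Hoxa sum was 139 ± 16.7 against 140.5 ± 21.6 CPM, with ranges of 115 to 152 and 119 to 168 CPM, and was higher in CD249+ cells in mice 7 and 10 and lower in mice 2 and 8. The Hoxb share of all Hox RNA was 33.2% in CD249- and 45.9% in CD249+ cells, and the Hoxa share 66.6% and 53.6%. By paralog number, paralog 5 summed to 136 ± 16.3 and 125 ± 11.3 CPM, paralog 6 to 4.19 ± 0.3999 and 17.9 ± 2.10 CPM, paralog 7 to 14.4 ± 3.88 and 31.5 ± 6.77 CPM, and paralog 2 to 32.0 ± 5.05 and 57.9 ± 10.96 CPM. Hoxb2 carried most of the paralog 2 difference and Hoxb6 most of that of paralog 6. These sums contain the called genes and were not tested.

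**Figure D4:**
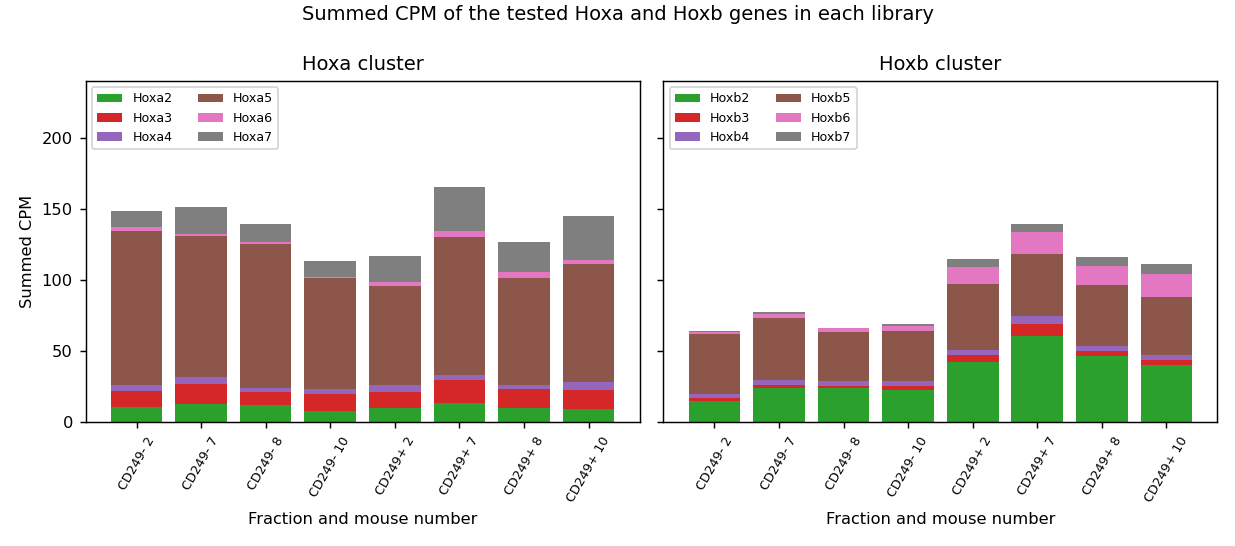
Summed CPM of tested Hoxa and Hoxb genes in each of the 8 libraries, stacked by gene. The Hoxb stacks reach 63.9 to 77.4 CPM in CD249- and 112 to 139 CPM in CD249+ libraries, whereas the Hoxa stacks overlap and are dominated by Hoxa5.

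Hoxc and Hoxd genes were near the limit of detection. Hoxc4, the single tested member, held 0.100, 0, 0 and 0.390 CPM in CD249- and 0.560, 1.35, 0.354 and 0.411 CPM in CD249+ libraries, which are few reads in each library and overlap. It did not pass the test (log2 fold change 2.36, SE 1.16, adjusted p = 0.154 by edgeR), but passed at 0.0488 without the CD249- library of mouse 10. Hoxc6 had 1 count in 1 CD249- library, and 14 and 7 counts in the CD249+ libraries of mice 2 and 10. Hoxc5 had 5 and 30 counts in the CD249+ libraries of mice 7 and 10 and none elsewhere. Hoxd3, Hoxd8 and Hoxd9 had at most 10 counts in a library, in both fractions. Hoxd4 had its 6 counts in the CD249- library of mouse 7.

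Posterior genes of the Hoxa and Hoxb clusters were as sparse. Hoxa9 held 1, 2, 0 and 0 counts in CD249- and 6, 6, 10 and 0 counts in CD249+ libraries. Hoxb8, the next gene after Hoxb7, had 0 counts in the CD249- libraries and 5, 1, 0 and 9 in the CD249+ libraries. Hoxb9 had 15 counts in the CD249- library of mouse 7 alone, Hoxa11 had 7 in that library and Hoxa13 had 8 in the CD249+ library of mouse 8. These genes did not pass the filter on low counts. With no filter, the members called were still Hoxa7, Hoxb2, Hoxb6 and Hoxb7.

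The sign of the Hox differences rests on what a level is compared with. Relative to 8 core collagen genes, which are higher in CD249+ cells, the median log2 fold change of all genes moved from -0.02 to -1.88. On that scale 0 of the 14 members were called higher (2.38% of all genes) and 7 lower (80.3% of all genes, 82.7% in either direction), namely Hoxa2, Hoxa3, Hoxa4, Hoxa5, Hoxa7, Hoxb4 and Hoxb5. Unadjusted p values under 0.05 in the higher direction also numbered 0 there by edgeR. Hoxb6 at 0.68 and Hoxb7 at 1.04 still lay above 0, with adjusted p of 0.158 and 0.165 by edgeR, while Hoxb2 lay at -0.66 and Hoxa7 at -0.97. Against the shifted median, 12 of the 14 members, these 4 included, lay above the median gene, and Hoxa2 and Hoxa5 lay below it. The main fit gave the same split. The scaling moves all genes by a similar amount, so this is no separate support. Per unit of collagen RNA, no rise of a Hox gene passed the test.

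Hox proteins bind DNA together with TALE homeodomain cofactors of the Pbx, Meis and Pknox families. Of 9 such genes, all tested, 3 rose, 1 fell and 5 did not pass, beside 16.9% of all genes called higher and 13.9% lower, with a median log2 fold change of -0.08, beside -0.02 for all genes. With mouse as a block, Pbx3 was also called lower (2 lower in all, beside 17.1% of all genes), a gene named after its values were seen. Meis3, a Meis family member, was at 6.51, 5.499, 8.72 and 8.67 CPM in CD249- and 22.8, 32.6, 24.4 and 24.8 CPM in CD249+ libraries. The groups were far apart, with means of 7.35 ± 1.61 and 26.2 ± 4.39 CPM (log2 fold change 1.83, adjusted p = 0.000144 by edgeR). Pknox2 rose from 40.4 ± 16.2 to 85.6 ± 12.9 CPM (log2 fold change 1.09, adjusted p = 0.0113 by edgeR, and 0.0749 without both libraries of mouse 10). Meis2 went the other way, at 67.2, 74.1, 64.7 and 68.4 CPM in CD249- and 54.3, 44.8, 42.3 and 41.4 CPM in CD249+ libraries, without overlap (log2 fold change -0.59, adjusted p = 0.00289 by edgeR). Relative to the core collagen genes, Meis3 and Pknox2 lay below 0, at -0.02 and -0.90.

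**Figure D5:**
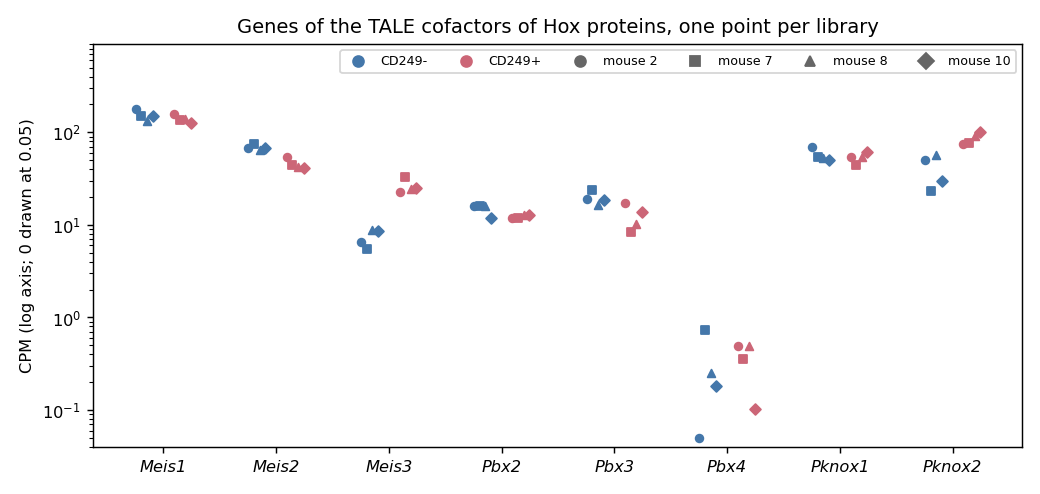
Level of TALE cofactor genes in each library, in CPM on a log axis, with 1 point per library, coloured by fraction and shaped by mouse. Meis3 separates upward in CD249+ cells, from a mean of 7.35 CPM to 26.2 CPM, and Meis2 separates downward, from 68.6 to 45.7 CPM.

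Polycomb proteins hold Hox genes silent through histone H3K27 methylation and chromatin compaction. Of 22 Polycomb genes tested, 3 rose, 2 fell and 17 did not pass, so that 22.7% were called, beside 30.8% of all genes. The median log2 fold change was 0.00, beside -0.02. With mouse as a block, Cbx7, named after its values were seen, was also called higher (4 in all). Cbx6, a chromobox reader subunit, rose from 83.3 ± 8.61 to 183 ± 27.2 CPM (log2 fold change 1.14, adjusted p = 0.000166 by edgeR). Smaller rises were measured for Rbbp7, a histone-binding subunit (log2 fold change 0.47, adjusted p = 0.00310 by edgeR), and for Ring1, a ubiquitin ligase subunit (0.63, adjusted p = 0.00812, and 0.0558 without both libraries of mouse 7, by edgeR). Bmi1, a partner of the ligase, fell from 51.1 ± 6.03 to 33.2 ± 3.77 CPM (log2 fold change -0.62, adjusted p = 0.00377 by edgeR). Cbx6, Rbbp7 and Ring1 lay below 0 relative to the collagen genes. Trithorax genes and H3K27 demethylases, which oppose Polycomb, gave 0 calls among 10 tested, beside 30.8% of all genes called, with a median log2 fold change of -0.19. For this list edgeR gave an unadjusted p under 0.05 for 1 gene, Dpy30, which was lower, and DESeq2 and limma-voom called 0.

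Of 9 regulators known to act upstream of Hox genes in the embryo, 6 were tested, and 1 rose and 1 fell (33.3%, beside 30.8% of all genes). Egr2, which drives Hoxa2 and Hoxb2 in the hindbrain and is also a stress-responsive early gene, rose from 54.4 ± 17.3 to 130 ± 54.3 CPM (log2 fold change 1.258, adjusted p = 0.0183 by edgeR), with overlapping groups and higher values in CD249+ cells of 4 of 4 mice. With mouse as a block its adjusted p was 2.85e-05 by edgeR. Without the block, omitting the CD249+ sample of mouse 7 or 8, or all RNA of mouse 7, 8 or 10, ended that call, at adjusted p of 0.0531 to 0.0763 by edgeR. Rara, a retinoic acid receptor, fell slightly (log2 fold change -0.34, adjusted p = 0.0338 by edgeR), and among the fits that left out libraries, those that omitted mouse 7 alone kept this call. Without either library of mouse 2, 8 or 10, or without both of one of these mice, its adjusted p was 0.0597 to 0.179 by edgeR. The 4 others tested did not pass, and with mouse as a block 2 of the 6 were called higher and 1 lower. Cdx1, Cdx2 and Cdx4, activators of middle and posterior Hox genes, had too few counts to test.

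Genes that flank the clusters were examined to see whether differences ran beyond the Hox genes. Of 12 flanking genes tested, 3 rose, 2 fell and 7 did not pass, so that 41.7% were called, beside 30.8% of all genes. The median log2 fold change was 0.05, beside -0.02. Lnp, a gene for an endoplasmic reticulum protein beside the Hoxd cluster, rose from 9.28 ± 1.33 to 22.2 ± 1.74 CPM (log2 fold change 1.255, adjusted p = 0.000275 by edgeR), although the Hoxd genes themselves were barely detected. Cbx5, a heterochromatin protein gene near the Hoxc cluster, rose from 43.9 ± 2.95 to 70.2 ± 5.26 CPM (log2 fold change 0.68, adjusted p = 0.000614 by edgeR). Near the Hoxa cluster, Skap2, a signalling adaptor, fell (log2 fold change -0.48, adjusted p = 0.00297 by edgeR). So did Snx10, a sorting nexin (-0.54, adjusted p = 0.0140 by edgeR, and 0.0615 with mouse 8 omitted and 0.0815 with mouse 10 omitted). Lnp and Cbx5 lay below 0 relative to the collagen genes. The flanking genes tested beside the Hoxb cluster, which holds Hoxb2, Hoxb6 and Hoxb7, were not called. They are too few to show whether differences end at that cluster.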

How the data were processed

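RNA of 8 libraries was reverse transcribed from oligo(dT) with an input of 10 ng (SMART-Seq V4), made into Nextera XT libraries and read as single 75-base reads, per the labels' protocols. The table deposited by the authors holds expected counts, estimated counts per gene that need not be whole (12.0% are not). The submitters' processing notes list RSEM 1.2.28 and STAR 2.6.1 without their roles, and a human genome build although identifiers in the table are those of mouse. The build used for counting is therefore not given in the sources used here. The 92 spike-in entries are 0 throughout and were left out. Library totals were 23011383 to 31906414. The columns are named Ctrl and LIF, unexplained abbreviations that the sample labels tie to CD249- and CD249+.

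Counts were rounded, filtered with edgeR's filterByExpr (14524 genes kept) and scaled by TMM. The quasi-likelihood F test of edgeR 4.0.16 (R 4.3.3, two-sided) had the sorted fraction as its single term. P values were adjusted by Benjamini-Hochberg over the whole table, calls were made below 0.05, and "rose" or "fell" refers to called genes. A positive log2 fold change means more in CD249+ cells, and CPM use TMM-scaled totals. Intervals are at 95%, and those and the floor of 3 counts do not cover amplification. Coordinates, exon lengths (union over protein-coding transcripts) and homeoboxes came from GENCODE M21 on GRCm38, where 99.0% of identifiers were found. Both fractions of a mouse came from 1 lung. Across genes, deviations from the group means had correlations of 0.132 to 0.285 within a mouse and -0.212 to 0.0515 between mice, so mouse numbers pair the libraries. Alternatives were DESeq2 1.42.0, voom of limma 3.58.1, library size only, scaling to 8 core collagen genes, mouse as a block, other filters, leaving out libraries or mice, and 2 pairs of mice that earlier work on these data separated by haemoglobin counts. A few genes and sequences are not reported here. Every other Hox gene could be named, with up to 4 members of smallest p of each other list, Enpep and the gate genes. The members, lists and naming rule were chosen with earlier results of these data known.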

Additional observations from a re-analysis of the deposited data

Results flagged for a closer look

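Hoxb2 in the CD249- library of mouse 2 was at 15.1 CPM, apart from the other 3 CD249- libraries at 22.6 to 24.1 CPM (gap over range 0.834). Hoxb4 in the CD249+ library of mouse 7 was at 5.24 CPM, apart from the others at 3.52 to 3.61 CPM (gap over range 0.950). These 2 values stood out by Dixon's criterion among 60 groups of 4 libraries checked, where chance alone marks about 1 in 20 groups.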

How the results depend on the processing

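The number of Hox genes called higher stayed within 1.5 times the 4 reported, and the number lower at 0, with DESeq2, voom, library size only, either filter and mouse as a replicate block. Leaving out a library or a mouse gave 3 to 5 higher and 0 to 0 lower. Relative to the core collagen genes 0 were higher and 7 lower. Mice 7 and 8 alone gave 2 higher (Hoxb2 and Hoxb6). Mice 2 and 10 alone gave 0 by edgeR, with 4 at an unadjusted p under 0.05, and there 668 of 14680 genes were called in all (4.55%). The calls over all genes, 4468, became 12008 with the collagen scaling and 2978 without mouse 8. With library size only, the split over all genes was 2106 higher and 2689 lower, beside 2455 and 2013. The block kept the same 4 Hox genes, with adjusted p from 9.58e-05 to 0.00568 by edgeR, and changed 1 other call among 30 genes followed, Ptprc (0.0635 to 0.0126). Over the gene lists it added calls such as Pbx3 and Cbx7. Fold changes that turned sign with the collagen scaling were Hoxa3 (-1.64), Hoxa4 (-1.73), Hoxa6 (-0.85), Hoxa7 (-0.97), Hoxb2 (-0.66), Hoxb3 (-0.54), Hoxb4 (-1.56), Hoxb5 (-1.70), Meis3 (-0.0176), Pknox2 (-0.90), Cbx6 (-0.775), Rbbp7 (-1.41), Ring1 (-1.24), Egr2 (-0.63), Lnp (-0.55), Cbx5 (-1.19) and Epcam (-1.74), the scaling itself moving all genes. Hoxa2 turned to 0.0255 in mice 2 and 10, and Hoxa4 to -0.315 in mice 7 and 8. Epcam turned to -0.00322 with library size only, -0.12 with voom, -0.11 with the block and -0.72 in mice 7 and 8. The cause was not tested. With libraries left out, values that crossed 0 were Hoxa2 (-0.17 to 0.0524), Hoxa4 (-0.12 to 0.33), Epcam (-0.35 to 0.41) and the differences in the ratios Hoxa4 over Hoxa3 (-0.30 to 0.0364), Hoxb3 over Hoxb2 (-0.19 to 0.14), Hoxb5 over Hoxb4 (-0.19 to 0.0247) and Hoxb7 over Hoxb6 (-0.0645 to 1.17). Genes of a few counts, such as Hoxc4 and the 25 untested members, are limited by depth.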
